A study of Mus musculus with 4 samples.

Results

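Retrogenes are copies of a gene that arose from its spliced mRNA and were inserted elsewhere in the genome, so that they lack most or all introns of the parent gene. The 6 genes described here, D1Pas1, Pdha2, Cstf2t, Utp14b, Cetn1 and Rbmxl2, are autosomal retrocopies of the X-linked genes Ddx3x, Pdha1, Cstf2, Utp14a, Cetn2 and Rbmx. They were chosen by name as retrocopies that are active in spermatocytes, with earlier results of these data known. All 6 were found among 37718 gene rows. Because activity in these cells was part of the choice, their levels and their excess over the parents are described without a test.

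During the pachytene and diplotene stages of male meiosis the X and Y chromosomes are condensed in the sex body and largely silenced. Housekeeping proteins encoded on the X chromosome are then supplied, in many known cases, by autosomal retrogenes that are transcribed in the testis. D1Pas1 encodes a DEAD-box RNA helicase, Pdha2 the E1 alpha subunit of pyruvate dehydrogenase, Cstf2t an RNA-binding subunit of the cleavage stimulation factor that acts in polyadenylation, Utp14b a protein of ribosomal RNA processing, Cetn1 a calcium-binding centrin of centrioles, and Rbmxl2 a nuclear RNA-binding protein of the RBMX family.

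RNA came from diplotene cells of mice at 20 dpp that carried either 1 (Tdrd6+/-, 2 samples) or no functional copy (Tdrd6-/-, 2 samples) of Tdrd6, which encodes a tudor domain protein of male germ cells. In both genotypes human CD4 was expressed from the Tdrd6 promoter, and the hCD4+ cells were isolated with magnetic beads, each sample from a pool of at least 4 mice. By the paper's counts such preparations were mostly but not wholly diplotene cells, and secondary spermatocytes and round spermatids were counted beside them. They are called diplotene cells here. No wild-type sample was part of the comparison. Gene rows summed to between 26454326 and 31388750 fragment counts per sample. Tdrd6 itself, the targeted gene, had 1269 and 1412 CPM (counts relative to library totals adjusted by edgeR's TMM factors) in Tdrd6+/- and 11.4 and 12.5 CPM in Tdrd6-/- diplotene cells. Markers of pachytene and diplotene spermatocytes summed to between 6940 and 8300 CPM, against 212 to 250 CPM for spermatid markers, 87.9 to 114 CPM for Sertoli cell markers, 27.9 to 36.8 CPM for markers of spermatogonia and early meiosis, 17.6 to 22.9 CPM for Leydig cell markers and 3.56 to 6.07 CPM for macrophage and blood cell markers. Of the pachytene and diplotene sum, Ldhc alone gave 3612 to 4909 CPM. Of the spermatid sum, Crem alone gave 185.6 to 206.5 CPM, and no other listed spermatid marker exceeded the 19.13 CPM of Tssk1. No listed marker was at 0 in all samples.

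The origin of the members from spliced mRNA could be read from their sequences. In the GENCODE M21 annotation of mm10 each member is encoded by 1 coding exon, whereas the coding sequences of the parents are divided over 17 exons in Ddx3x, 11 in Pdha1, 13 in Cstf2, 15 in Utp14a, 5 in Cetn2 and 8 in Rbmx. For 4 pairs, the 30 bases around a parental exon junction are shown, 15 on each side. Capitals mark the positions where retrogene and parent differ. Only junctions whose window aligned without a gap were eligible, and the one nearest to the middle of the coding sequence was taken. Eligible were 15 of 16 junctions in Ddx3x, 9 of 10 in Pdha1, 12 of 14 in Utp14a and 7 of 7 in Rbmx. In these windows the retrogene runs without a break through a point at which an intron interrupts the parent. The unbroken run was a condition of the choice.
D1Pas1, chr1:186968883-186968912, plus strand: ACtGgacttctgcaaatacTtggtgttaga
Ddx3x, coding junction 10 of 16, intron of 454 bases: GTtAgacttctgcaaatacCtggtgttaga
Pdha2, chr3:141211125-141211154, minus strand: ggtgcGgctaaCcaAggGcagGtAttCgaa
Pdha1, coding junction 6 of 10, intron of 736 bases: ggtgcTgctaaTcaGggTcagAtCttTgaa
Utp14b, chr1:78665768-78665797, plus strand: GccaagaaacaGaagaCtctGATagccagg
Utp14a, coding junction 11 of 14, intron of 2033 bases: AccaagaaacaAaagaTtctACCagccagg
Rbmxl2, chr7:107210027-107210056, plus strand: gaAtTCgCggGCgGgcGGcGgGCtcccgGg
Rbmx, coding junction 4 of 7, intron of 559 bases: gaCtGGgAggAAgAgcCCcTgTGtcccgTg

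The number of differences in these windows was 4 for D1Pas1, 7 for Pdha2, 6 for Utp14b and 13 for Rbmxl2. Over the aligned coding sequence, D1Pas1 was 87.4% identical to Ddx3x, Cetn1 80.0% to Cetn2, Utp14b 78.5% to Utp14a, Pdha2 77.0% to Pdha1, Cstf2t 76.4% to Cstf2 and Rbmxl2 68.3% to Rbmx. The longest stretch shared without a difference by the 2 transcripts of a pair was 44 bases, in D1Pas1 and Ddx3x, and ranged from 13 bases in Rbmxl2 to 30 bases in Utp14b among the other pairs. No run of 50 bases was shared in any pair, which bears on how often a fragment could be assigned to the wrong copy. The read length is not given in the sources used here.

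The loci lie at chr1:186967416-186970627 for D1Pas1, chr3:141210004-141212355 for Pdha2, chr19:31082837-31087069 for Cstf2t, chr18:9615524-9619478 for Cetn1 and chr7:107209445-107210916 for Rbmxl2. Cstf2t sits in an intron of Prkg1 on the opposite strand, and the first bases of D1Pas1 overlap the antisense gene Gm37912. Whether the counting used the strand is not given in the sources used here. Utp14b overlaps Acsl3, a fatty acyl-CoA ligase gene, on the same strand, and both were counted in 1 joined row. Every value of the Utp14b row therefore holds Acsl3 fragments too.

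The 5 retrogenes with a row of their own ranked at 1504 or higher among 19461 genes by level, and Utp14b has no level of its own. Per kb of exon, which allows genes of different length to be compared, Cetn1 had 383.3 and 457.0 CPM in Tdrd6+/- and 457.0 and 514.0 CPM in Tdrd6-/- diplotene cells. Pdha2 followed with 145.4 and 141.4 CPM per kb in Tdrd6+/- and 142.1 and 154.7 CPM per kb in Tdrd6-/- cells. D1Pas1 had 111.2 and 117.0 CPM per kb in Tdrd6+/- but 53.98 and 47.47 CPM per kb in Tdrd6-/- cells. These 3 genes kept the same order in all 4 samples, and their ranges did not overlap.

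Cstf2t, with 39.35 and 38.2 CPM per kb in Tdrd6+/- and 38.89 and 40.52 in Tdrd6-/- cells, could not be separated from Rbmxl2. Rbmxl2 had 39.98 and 34.65 CPM per kb in Tdrd6+/- and 34.07 and 44.74 in Tdrd6-/- cells and was the lower of the pair in 2 of 4 samples. The joined row of Utp14b and Acsl3 was lowest, between 17.07 and 18.27 CPM per kb.

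Among the 19461 genes that had an exon length and 10 or more counts summed over the samples, the mean level per kb placed Cetn1 at rank 46, Pdha2 at 276, D1Pas1 at 575, Cstf2t at 1472, Rbmxl2 at 1504 and the Utp14b row at 3069. D1Pas1 moved most between samples, from rank 377 to rank 1224, whereas Cetn1 stayed between 43 and 51.

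The X-linked parents were far lower. Ddx3x, a DEAD-box helicase like its retrocopy, was highest with 3.553 and 2.667 CPM per kb in Tdrd6+/- and 3.763 and 3.926 in Tdrd6-/- cells. Rbmx lay between 1.226 and 1.95 CPM per kb, and Pdha1 was lowest, between 0.2884 and 0.4807 CPM per kb. Cstf2 (counted in 1 row with Mir3112), Utp14a and Cetn2 lay between 0.638 and 1.095 CPM per kb. Parental ranks ran from 7676 for Ddx3x to 13955 for Pdha1. For comparison, the median of 633 X-linked protein-coding genes was 0.392 and 0.434 CPM per kb in Tdrd6+/- and 0.568 and 0.494 in Tdrd6-/- cells, and that of 14694 autosomal ones 2.43 to 2.61 in the 4 samples.

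Fragments assigned to exon junctions of the parents were few but present in every sample, from 155 to 275 counts for Ddx3x, 71 to 135 for Cstf2, 39 to 90 for Rbmx, 23 to 46 for Utp14a, 15 to 28 for Cetn2 and 10 to 19 for Pdha1. Retrogene fragments carry the same exon order, and whether some of them were assigned to these junctions was not tested.

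**Figure D1:**
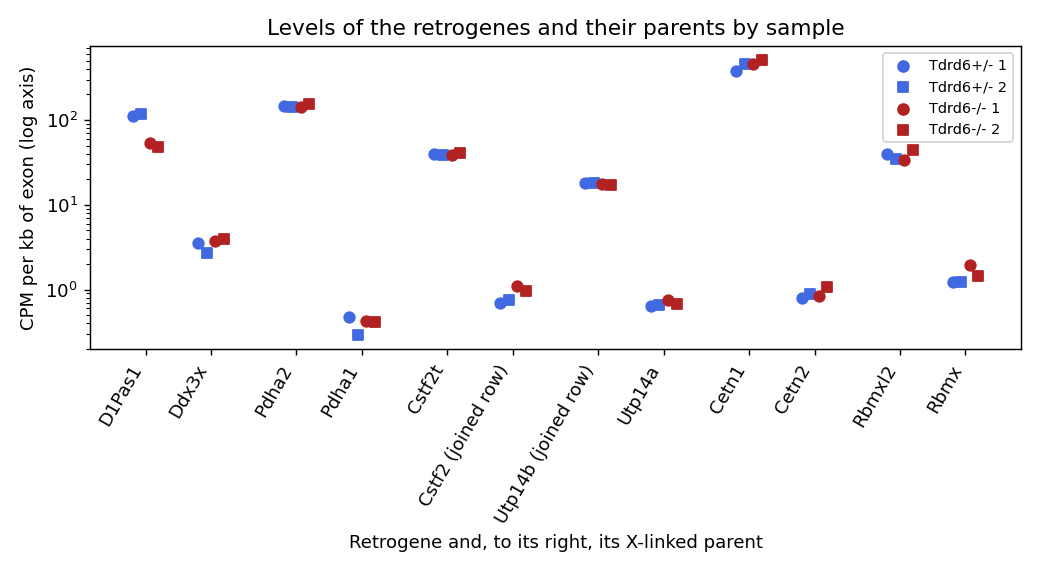
CPM per kb of exon (log axis) of each retrogene and its X-linked parent in the 2 Tdrd6+/- (blue) and 2 Tdrd6-/- (red) samples, 1 point per sample. The 5 retrogenes counted alone, and the joined row of Utp14b and Acsl3, lie above the parents in all 4 samples, and D1Pas1 is the only retrogene whose red and blue points lie clearly apart, at 47.47 to 53.98 against 111.2 to 117.0 CPM per kb.

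Between genotypes, 1 of the 6 rows that hold the retrogenes differed. The joined row of Utp14b and Acsl3 cannot show a change of Utp14b alone. D1Pas1 fell in Tdrd6-/- diplotene cells. In Tdrd6+/- samples its row held 9350 and 10465 counts, in Tdrd6-/- samples 5483 and 4880, or 357.0 and 375.7 against 173.4 and 152.5 CPM (means 366 ± 13.2 and 163 ± 14.8, SD, n = 2 each). Both Tdrd6-/- samples lay below both Tdrd6+/- samples, and the gap was wider than the spread within either genotype. The log2 fold change was -1.17 (SE 0.131, adjusted p = 2.3e-05 in edgeR's quasi-likelihood test over 16555 genes), a mean 2.25-fold higher in Tdrd6+/- cells.

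D1Pas1 had the 7th smallest p of all 16555 genes tested, and 8 of 2429 genes with a mean of at least 100 CPM fell further. In that whole-table test 4.8% of genes were called at a false discovery rate of 0.1, 3.78% as lower and 1.02% as higher in Tdrd6-/- cells, so that 1 lower call among the 6 retrogenes is read against a background of 3.78%. Because the 6 were chosen with earlier results of these data known, this is not an independent comparison. With libraries scaled by all tallied fragments in place of edgeR's TMM factors, which raises every log2 fold change by 0.225, the split of all calls turned from 625 lower and 169 higher to 223 lower and 845 higher, and D1Pas1 was still called lower, with a log2 fold change of -0.95. Spermatid markers had a median log2 fold change of 0.48 with 2 of 6 tested members called higher, and 7 of 8 Sertoli cell markers had positive values with none called. Of 11 pachytene and diplotene markers 3 were called higher and 1 lower, and none of the markers of spermatogonia, Leydig cells or macrophages and blood cells was called. The part of these cell types in the D1Pas1 value was not tested. In bulk samples, fewer cells that express a gene and less RNA per cell cannot be told apart.

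The other 5 rows did not pass the test, and that of Utp14b holds Acsl3 fragments too. Pdha2 had 342.0 and 332.7 CPM in Tdrd6+/- and 334.2 and 363.8 CPM in Tdrd6-/- cells (log2 fold change 0.05, adjusted p = 0.918 in edgeR). Cstf2t had 166.6 and 161.7 against 164.6 and 171.5 CPM, a log2 fold change of 0.03. In both genes the genotypes overlapped. Rbmxl2 had 58.85 and 51.01 against 50.15 and 65.86 CPM, a log2 fold change of 0.08, with overlapping genotypes.

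Cetn1 had 530.4 and 632.5 CPM in Tdrd6+/- and 632.5 and 711.4 CPM in Tdrd6-/- cells (log2 fold change 0.21, SE 0.135, adjusted p = 0.546 in edgeR). The joined Utp14b row had 215.4 and 212.8 against 206.0 and 201.3 CPM, a log2 fold change of -0.07 that took the opposite sign with 2 of 4 other library scalings. D1Pas1, Cetn1 and the Utp14b row were the 3 of 6 whose genotypes did not overlap in CPM, which held for 43.5% of all genes tested, and in Cetn1 the nearest samples of the genotypes both had 632.5 CPM after rounding. Over the 6 rows, the joined one among them, the median log2 fold change was 0.04, and over all genes tested it was 0.01.

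**Figure D2:**
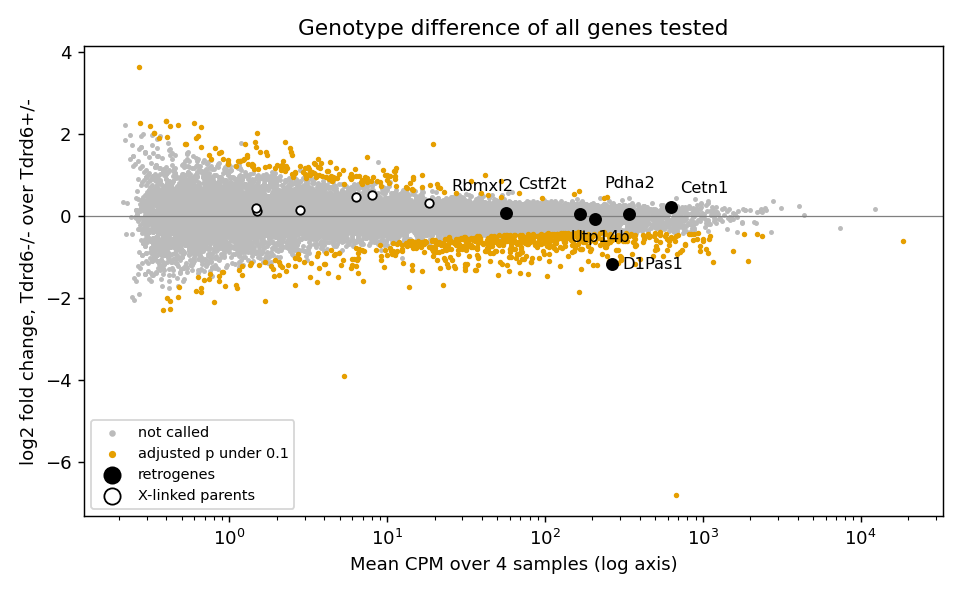
Log2 fold change of Tdrd6-/- over Tdrd6+/- against mean CPM (log axis) for all 16555 genes tested, with genes called at an adjusted p under 0.1 in orange, the 6 retrogenes as black points and their 6 parents as open points. D1Pas1 lies at -1.17, below the other 5 black points, the joined row of Utp14b and Acsl3 among them, which lie between -0.07 and 0.21.

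None of the 6 parents passed the test, although all 6 log2 fold changes were positive. The median level of all X-linked protein-coding genes was likewise higher in both Tdrd6-/- samples, as given above. Ddx3x had 18.75 and 14.07 CPM in Tdrd6+/- and 19.86 and 20.72 CPM in Tdrd6-/- cells (log2 fold change 0.31, adjusted p = 0.516 in edgeR). Cstf2 had 6.339 and 6.964 against 10.06 and 8.78 CPM, a log2 fold change of 0.50 (adjusted p = 0.293 in edgeR), and Rbmx 5.308 and 5.349 against 8.443 and 6.28 CPM, a log2 fold change of 0.47. The remaining parents had values of 0.19 for Cetn2, 0.14 for Utp14a and 0.12 for Pdha1. With scaling by all tallied fragments Cstf2 was called higher (log2 fold change 0.72).

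The ratio of retrogene to parent was then followed per kb of exon in each sample. D1Pas1 exceeded Ddx3x 31.3-fold and 43.9-fold in Tdrd6+/- and 14.3-fold and 12.1-fold in Tdrd6-/- cells. On the log2 scale the ratio was 5.21 ± 0.345 and 3.72 ± 0.174 (SD, n = 2 each), a difference of -1.49 without overlap. Since 2 samples against 2 cannot give an exact two-sided permutation p below 0.33, this pair had p = 0.33, or 0.67 after Benjamini-Hochberg adjustment over 6 pairs.

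Cstf2t exceeded Cstf2 57.0-fold and 50.3-fold in Tdrd6+/- and 35.5-fold and 42.4-fold in Tdrd6-/- cells. The Utp14b row exceeded Utp14a 28.6-fold and 27.3-fold against 23.3-fold and 25.1-fold. Neither pair overlapped between genotypes, with log2 differences of -0.47 and -0.21. Each had an exact permutation p of 0.33, or 0.67 after Benjamini-Hochberg adjustment. The retrogenes themselves moved little, with log2 fold changes of 0.03 for Cstf2t and -0.07 for the Utp14b row. Their parents had 0.50 for Cstf2 and 0.14 for Utp14a. Pdha2 exceeded Pdha1 between 303-fold and 490-fold, Cetn1 exceeded Cetn2 between 475-fold and 541-fold, and Rbmxl2 exceeded Rbmx between 17.5-fold and 32.6-fold, all with overlapping genotypes. The junction counts and levels of Pdha1, Cetn2 and Utp14a rest on few fragments, so that these ratios are imprecise.

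**Figure D3:**
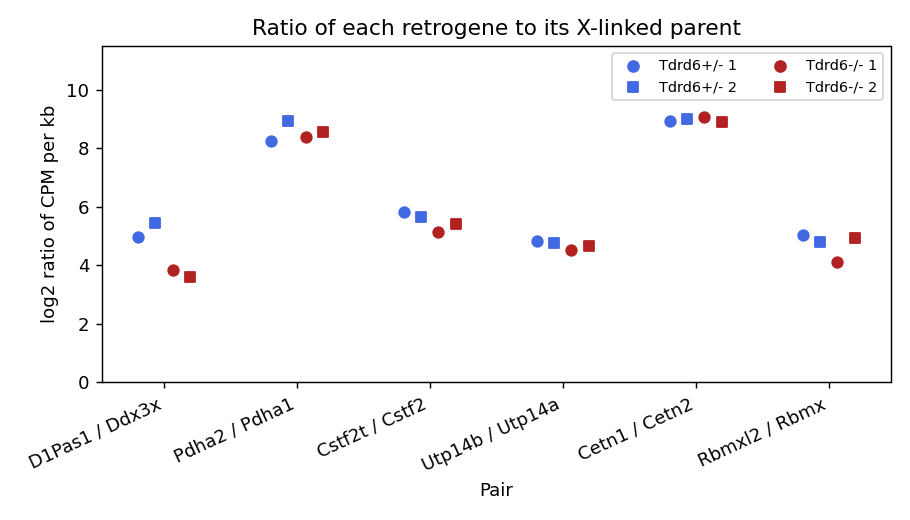
Log2 ratio of CPM per kb of each retrogene to its X-linked parent, 1 point per sample, Tdrd6+/- in blue and Tdrd6-/- in red. D1Pas1 over Ddx3x lies at 3.84 and 3.60 in Tdrd6-/- cells, below 4.97 and 5.46 in Tdrd6+/- cells, and Pdha2 and Cetn1 have the highest ratios.

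D1Pas1, Pdha2, Cstf2t and Rbmxl2 each had a single exon segment, no junction and no intron count, so that splicing of these genes could not be compared. Cetn1 had 2 exon segments, 1 junction and 1 intron in the deposited counts. The second segment held nearly all fragments, between 98.81 and 99.46 per 100 counts of the gene row. The first segment was hit by 264 and 338 fragments in Tdrd6+/- but 248 and 246 in Tdrd6-/- samples, or 1.90 and 1.92 against 1.24 and 1.08 per 100 gene counts. Both Tdrd6-/- samples were the lower ones, and the share of all segments for which this holds was not counted.

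In a DESeq2 likelihood ratio test of usage, which sets the count of a segment against the rest of its gene, the first Cetn1 segment had a log2 change of -0.73 (SE 0.158, adjusted p = 0.00349) and the second of 0.85 (SE 0.161, adjusted p = 0.000219), beside 0.411% of 80779 segments and junctions called. With only 2 segments in the gene, these values are the same shift seen from both sides. On simulated counts this test made false calls above its nominal rate for small shifts, so that both adjusted p-values may be too small. The calls depended on the fit. In an earlier version of the same test, in which the dispersion trend was fitted on the mean over the segment and the rest of its gene, neither was called (adjusted p = 0.244 and 0.527 in DESeq2). That version was replaced by the trend used in DEXSeq after its results had been seen. The edgeR usage test did not call the first segment (adjusted p = 0.878). It sets a segment against its whole gene. The second segment holds nearly all of the gene, so that its edgeR value of 0.0138 was close to no change by construction. That value cannot decide the call of the second segment. Both DESeq2 calls were lost without Tdrd6+/- replicate 1 (log2 changes -0.74 and 0.73) and without Tdrd6-/- replicate 2 (-0.63 and 0.70). The shift is given here as a measured difference between these samples, whose call depends on the model.

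The Cetn1 junction was crossed by 78 and 119 fragments in Tdrd6+/- and by 89 and 91 in Tdrd6-/- samples, or 0.561 and 0.675 against 0.445 and 0.400 per 100 gene counts. It fell below the mean count that the filter of the usage test required and received no adjusted p. The sole intron held 630 and 379 fragments in Tdrd6+/- but 311 and 275 in Tdrd6-/- samples, or 4.54 and 2.15 against 1.56 and 1.21 per 100 gene counts. A gene with 1 intron has no intron usage to test. Over all genes, introns took 34.51% and 29.53% of intron and gene counts in Tdrd6+/- and 29.82% and 23.43% in Tdrd6-/- samples. The highest and the lowest sample were the same as for the Cetn1 intron, but the genotypes overlapped, and the part of this spread in the Cetn1 values was not tested.

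**Figure D4:**
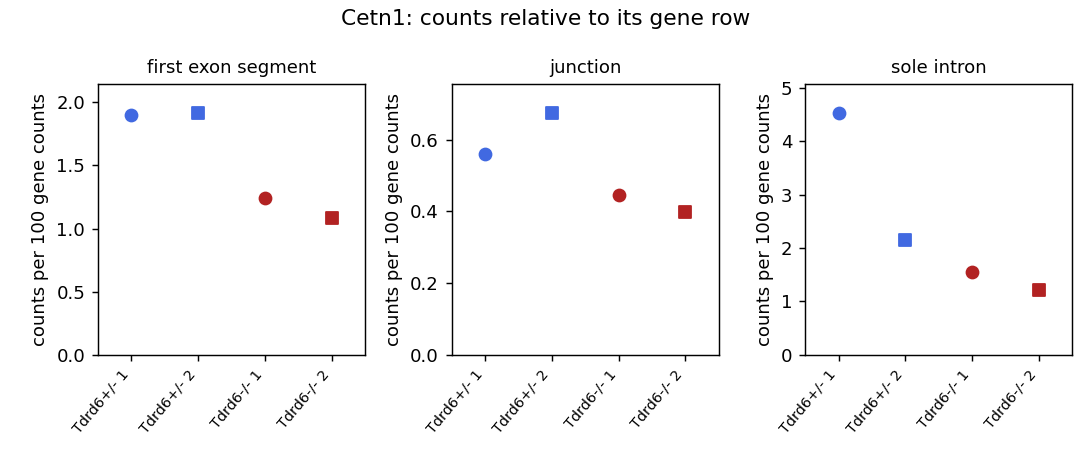
Counts of the first exon segment, the junction and the sole intron of Cetn1 per 100 counts of its gene row, 1 point per sample, Tdrd6+/- in blue and Tdrd6-/- in red, each axis starting at 0. All 3 are lower in both Tdrd6-/- samples, and the intron is highest in Tdrd6+/- replicate 1, at 4.54. The 3 values share the gene row as denominator and are not separate observations. The share of all segments, junctions and introns that lie apart in this way was not counted.

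In the joined row of Utp14b and Acsl3 the junction that by its order leads into the main exon of Utp14b was crossed by 29 and 49 fragments in Tdrd6+/- and by 38 and 49 in Tdrd6-/- samples, with overlapping genotypes. The seventh exon segment, which by its order from the left would be the coding exon of Utp14b, held 1930 and 2142 against 2156 and 2192 counts, or 34.21 and 36.13 against 33.1 and 34.02 per 100 counts of the row. The places of this junction and this segment are both uncertain, because the deposited segments number 31 and those of the annotation used here do not match that number. The 2 introns listed under Utp14b had 0 counts. Whether fragments could be counted for introns in this overlap with Acsl3 is not given in the sources used here. The 0 is therefore not read as an absence of intron fragments.

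Retrogenes outside the 6 showed the same direction of level in most cases. They too were listed with earlier results of these data known, so that this is not an independent comparison. In a list of 12 further autosomal retrogenes of X-linked parents, 9 were higher per kb than their parent in all 4 samples, among them Gk2 (460 against 0.0875 CPM per kb, glycerol kinase), Rpl39l (242 against 0.989) and Pgk2 (163 against 0.462, phosphoglycerate kinase). Shared sequence was not measured for these pairs, so that the part of fragment assignment in these levels was not tested. Ubl4b and G6pd2 were lower than their parents in all samples, but had only 2 to 9 and 9 to 19 counts per sample. Prps1l1 had no exon length of its own. Of 11 tested, none was called in either direction, and their median log2 fold change was 0.20. The smallest p belonged to Rpl10l, a ribosomal protein, with 141.0 and 158.1 against 158.3 and 226.1 CPM, a log2 fold change of 0.36 (adjusted p = 0.256 in edgeR). Of their parents, 0 of 11 tested were called, with a median of 0.29, against the 4.8% called over all genes.

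Listed partners and relatives of the 6 retrogenes and their proteins were mostly not called. In the list of cleavage and polyadenylation factors, the complex to which Cstf2t belongs, 1 of 18 fell and none rose, beside 3.78% and 1.02% over all genes, with a median log2 fold change of -0.08. The gene that fell was Cstf3, whose product binds CSTF2 and its retrocopy in the cleavage stimulation factor, with 79.58 and 74.27 CPM in Tdrd6+/- and 46.14 and 41.34 CPM in Tdrd6-/- cells (log2 fold change -0.82, SE 0.142, adjusted p = 0.00148 in edgeR). Papolg, a poly(A) polymerase, had a log2 fold change of -0.30 (adjusted p = 0.337 in edgeR).

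In the list of RBMX partners and relatives, 1 of 6 tested fell and none rose, beside 3.78% and 1.02% over all genes. It was Khdrbs1, an RNA-binding protein of splicing regulation, with 183.6 and 166.6 against 133.1 and 128.0 CPM (log2 fold change -0.42, adjusted p = 0.0817 in edgeR). Tra2a and Tra2b, splicing activators, had log2 fold changes of -0.30 and -0.24 and were not called.

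No gene was called in the 4 remaining lists, beside 4.8% of all genes tested called in either direction. Of 11 DEAD-box relatives of D1Pas1 the smallest p belonged to Ddx17, with 296.5 and 256.0 against 228.6 and 194.7 CPM (log2 fold change -0.38, adjusted p = 0.149 in edgeR), and Ddx4, the germ cell helicase, had a log2 fold change of -0.20. Among 10 tested genes of the pyruvate dehydrogenase complex and its regulators, Pdk3 had 7.446 and 7.61 against 10.81 and 11.53 CPM. Its log2 fold change was 0.57 (adjusted p = 0.184 in edgeR). Pdk3 encodes a kinase that inhibits the complex and is X-linked. The median level of X-linked protein-coding genes was higher in both Tdrd6-/- samples, as given above, and its part in the Pdk3 value was not tested. Of 30 genes of the small-subunit processome, in which UTP14 proteins act, Heatr1 had 251.5 and 252.4 against 197.4 and 186.1 CPM (log2 fold change -0.39, adjusted p = 0.106 in edgeR). Of 9 centrins and centrin partners, Cetn3 had 133.8 and 151.1 against 161.1 and 184.8 CPM, a log2 fold change of 0.28.

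For each retrogene, the genes with the most similar levels over the 4 samples were found by Euclidean distance in log2 CPM per kb. D1Pas1 had no close neighbour, Usp32 and Ywhae being nearest at 0.356 and 0.387. Cetn1 was nearest to Gk2, itself an autosomal retrogene, at 0.0596, and to Cmtm2b at 0.122. Pdha2 was nearest to Rnls and Smpd5, Cstf2t to Spag16 and Gdpd4, the Utp14b row to Dnttip1 and Tspyl5, and Rbmxl2 to Abhd14a and Unc50, at distances between 0.0451 and 0.148.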

How the data were processed

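RNA-seq was analysed from diplotene cells of 2 Tdrd6+/- and 2 Tdrd6-/- samples, grouped by their labels. Counts of fragments were deposited by the authors, without normalization, per gene, exon segment, junction and intron, after alignment to mm10 with GSNAP and annotation with Ensembl release 75; the counting program is not given in the sources used here. Positions and lengths came from GENCODE M21. Gene counts were filtered with filterByExpr, scaled by TMM and compared by the quasi-likelihood test of edgeR 4.0.16 in R 4.3.3, with Benjamini-Hochberg adjustment and a false discovery rate of 0.1. All 6 retrogenes passed the filter. Segment and junction usage (at least 10 counts in total) was tested with a DEXSeq-like model in DESeq2 1.42.0. It was run in 2 versions, and the dispersion trend was revised after the results of the first, including those of Cetn1, had been seen. Both are reported. Sequences were aligned with Biopython 1.88. The junction windows of Cetn1 and Cstf2t are not reported here. Gene and usage tests were checked on simulated data, where the usage test made false calls above its nominal rate for small shifts, so that its calls of small shifts are liberal. Ratios were compared by exact permutation.

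The members and lists were chosen with earlier results of these data known. In each list up to 4 genes with the smallest p among those without overlap between genotypes could be named, all members and parents were described in full, and for each member the 2 nearest genes were given. Samples are separate pools, so that p-values measure the spread between pools. Total gene counts of 26454326 to 31388750 per sample set the precision, which is lowest for the parents. The alternatives were other normalizations, filters, tests, a replicate block and leaving out each sample.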

Additional observations from a re-analysis of the deposited data

How the results depend on the processing

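D1Pas1 was called lower in all 15 alternatives of the gene test, with log2 fold changes from -1.27 to -0.95 and edgeR or DESeq2 adjusted p from 1.84e-16 to 0.0678. No other retrogene was called in any of them. The Utp14b row reversed to 0.0106 with library totals without TMM and 0.15 with tallied fragments. Leaving out single samples gave -0.12 to 0.26 for Rbmxl2, -0.0049 to 0.109 for Pdha2, -0.20 to 0.54 for Pdha1, 0.099 to 0.344 for Cetn1, 0.116 to 0.539 for Ddx3x and 0.237 to 0.673 for Rbmx. Over all genes, 169 higher and 625 lower calls became 212 and 378 with library totals, 845 and 223 with tallied fragments, 2 and 73 with a minimum of 1 count, and 89 higher at a false discovery rate of 0.05. Leaving out samples gave 59 to 320 higher and 147 to 744 lower calls. The cause was not tested.

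Replicate numbers do not pair the samples in the labels, and deviations of samples with the same number correlated at -0.107 over 12347 genes. A replicate block gave 239 higher and 807 lower calls and kept both Cetn1 usage calls, and the crossed pairing, added after the data were seen, gave 364 and 811. The block changed no call among the retrogenes.

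For usage, 332 calls became 63 with the first dispersion trend, kept as an alternative after the data were seen, 71 in the edgeR usage test and 52 to 780 without single samples. The first Cetn1 segment, at -0.73, had -0.73 with the first trend, -0.72 in edgeR and -0.83 to -0.63 without single samples. The second, at 0.85, had 0.85 with the first trend and 0.70 to 1.01 without single samples. Its edgeR value of 0.0138 is set against the whole gene, not the rest of it, and cannot be compared with 0.85. Neither segment was called with the first trend, and neither without Tdrd6+/- replicate 1 or Tdrd6-/- replicate 2. The first was not called in edgeR either.

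Ranks by CPM without length were 552 for Pdha2, 1106 for the Utp14b row, 219 for Cetn1 and 3762 for Rbmxl2. The Cetn1 ratio difference of 0.02 reversed to -0.0744 with parental junction counts and ranged from -0.0689 to 0.118 without single samples, that of Pdha2 from -0.46 to 0.23 and that of Rbmxl2 from -0.792 to 0.0285. Intron usage was not run, because no retrogene had more than 1 intron with counts. Low parental counts limit the ratios.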
